A study of Sus scrofa with 21 samples.

Results

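Ferroportin (SLC40A1) and 9 other genes that move, oxidize or store iron were followed in pig testis. They were found as the count rows whose Ensembl pig identifier carries the gene symbol, which gave a row for 9 of the 10 genes, among 25880 genes counted in all. FTH1, the heavy ferritin chain, had no row under its symbol and was not analysed here. The 9 genes are SLC40A1 (ENSSSCG00000027157), the ferroxidases CP and HEPH, the uptake genes TFRC, TF, STEAP3 and SLC11A2, and the ferritins FTL and FTMT.

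Most cells take up iron as transferrin (TF) bound to the transferrin receptor (TFRC). In the endosome the iron is reduced by STEAP3 and carried to the cytosol by the divalent metal transporter SLC11A2. Iron that is not used is stored in ferritin, made of light (FTL) and heavy (FTH1) chains, or of FTMT in the mitochondria, and the surplus leaves through ferroportin, the known iron exporter of animal cells, with ceruloplasmin (CP) or hephaestin (HEPH) oxidizing the iron as it leaves. In the testis iron serves the many mitochondria and iron enzymes of dividing and maturing germ cells and of the steroid-making Leydig cells, and FTMT is known as a testis-expressed ferritin.

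RNA from whole testis of 13 Landrace and 8 Duroc boars without experimental treatment was sequenced, with 1 library per boar. Hyperactivity is the vigorous, asymmetric beat that sperm need to fertilize, and boars were chosen for extreme values. In Landrace, contrast (i) compared high (L5 to L8) with low (L1 to L4) hyperactivity at day 0, and contrast (iii) compared a high (L7, L13, L15) with a low (L2, L9, L10, L12) change in hyperactivity over 96 h of semen storage at 18 °C. L2 and L7 stand in both contrasts, so their values are given side by side. In Duroc the labels give 5 High (D1 to D5) and 3 Low boars (D6, D7, D9). By boar name, the study's own description puts every one of these boars except D5 in the opposite group, so Duroc directions are those of the deposited labels only. Ages of single boars were not given in the sources used here.

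Libraries held 41358671 to 125576407 counts in genes. The 6 spermatid markers summed to 5546 to 12030 CPM and the 5 Leydig markers to 456.5 to 4451 CPM. CPM are counts scaled to the library size, after TMM normalization, which takes a trimmed mean of log ratios between libraries. The 8 Sertoli markers summed to 695.2 to 1933 CPM, although 1 of them, AMH, was at 0 in every library. Markers of each of these cell types were thus read in all 21 libraries. In contrast (i) 20.7% of 12979 genes (2682) were called at an adjusted p under 0.05 by the quasi-likelihood test in edgeR. This count of calls rested on single boars. It was 1 gene without L6 and 1 without L3, 966 without L1, 1228 without L8, 1481 without L4, 1836 without L2, 2766 without L7 and 3764 without L5. Unadjusted p from the same test changed less, with 5415 genes under 0.05 in the full contrast, 4708 without L6 and 3614 without L3. Contrast (iii) had 0 of 12824 genes called by that test, 2540 genes at an unadjusted p under 0.05, 64 called by the likelihood ratio test in edgeR and 116 by DESeq2. In bulk tissue, fewer cells of a type and less RNA per cell cannot be told apart.

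SLC40A1 was higher in the boars with a high change in hyperactivity after storage by the exact test over boars, but not past the adjusted threshold across all genes. The study reports SLC40A1 as its most significant gene in contrast (iii) from the same data. An exact p over these boars is therefore not an independent check. The gene lies on chromosome 15 (94140635 to 94161793, Sscrofa11.1, from the RefSeq entry of that symbol). It was 23.3 CPM in L13, 36.1 CPM in L15 and 48.2 CPM in L7, against 7.11 CPM in L10, 10.5 CPM in L12, 10.9 CPM in L9 and 17.1 CPM in L2. Every boar of the high group lay above every boar of the low group. The means were 35.8 CPM ± 12.5 (SD, n = 3) and 11.4 CPM ± 4.14 (SD, n = 4), and the fitted difference was a log2 fold change of 1.66 (SE 0.31, 95% interval 0.97 to 2.35), a fold of 3.17.

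**Figure D1:**
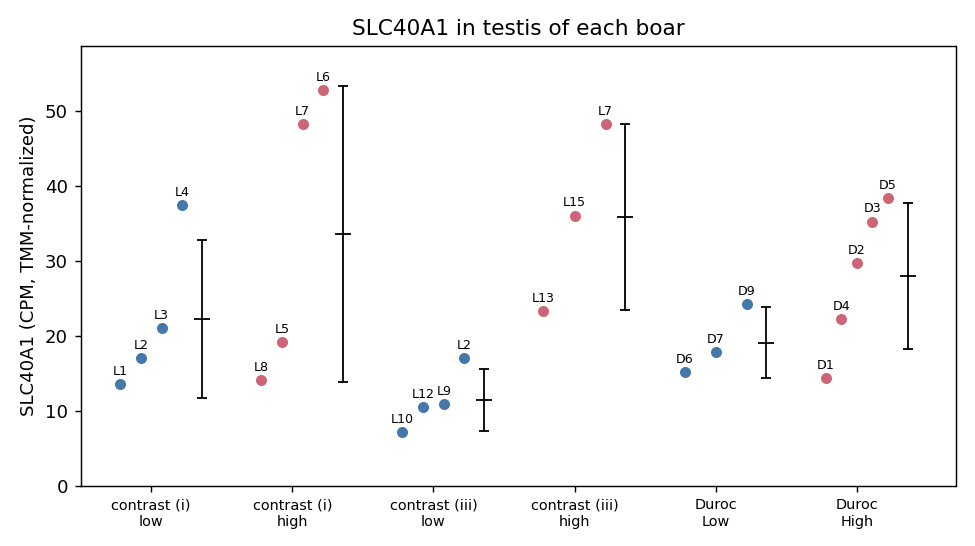
SLC40A1 level (CPM, TMM-normalized, y axis from 0) in each boar, by hyperactivity group (x axis), red for high and blue for low groups, with the group mean and SD as black bars. The 3 high boars of contrast (iii) lie at 23.3 CPM and above and the 4 low boars at 17.1 CPM and below, while the groups overlap in contrast (i) and in Duroc; L2 and L7 are drawn in both Landrace contrasts.

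The exact two-sided permutation test over boars gave p = 0.0286 for SLC40A1 in contrast (iii), the smallest p that 35 assignments allow. Among all genes it ranked 7 by p, and the quasi-likelihood test in edgeR gave an unadjusted p of 2.85e-04 and an adjusted p of 0.24, so it did not pass across all genes. The likelihood ratio test in edgeR called it (adjusted p = 0.00198), and so did DESeq2 (adjusted p = 2.88e-04). SLC40A1 was the only 1 of the 9 genes whose groups did not overlap in contrast (iii), where the groups of 16.2% of all genes tested did not overlap, 7.44% with the high group above.

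Other cell types varied beside SLC40A1 in these boars. The Leydig marker sum was 1318 to 2441 CPM in the high and 537.2 to 2122 CPM in the low group, with L10 (537.2 CPM) and L9 (724.5 CPM) far below L12 (2000 CPM) and L2 (2122 CPM). The part of the Leydig sum in the result was not tested. Without L9 and L10, a choice made after their values were seen that leaves 2 low boars, the SLC40A1 log2 fold change was 1.41 (SE 0.38, adjusted p = 0.399 from edgeR). The sum of the 5 endothelial markers was 40.5 to 56.9 CPM in the high and 27.0 to 45.9 CPM in the low group, and its part in the result was not tested. The endothelial receptors TEK and KDR had log2 fold changes of 0.82 and 0.815, each with an adjusted p of 0.24 from edgeR. SLC40A1 (unadjusted p = 2.85e-04) and the ferrireductase CYBRD1 (unadjusted p = 0.0112) shared this adjusted p in the same test, so it does not rank the genes. TEK was 4.71 to 8.04 CPM in the high and 2.94 to 4.58 CPM in the low group, which did not overlap, as in 7.44% of all genes tested with the high group above. TEK and KDR were chosen for naming after their values were seen, as was the macrophage marker CD163. The 11 markers of macrophages, a cell type known for much ferroportin, were read at unequal levels. Over the 21 libraries CSF1R and CD14 reached at most 0.501 and 0.202 CPM, and CD68 2.36, MSR1 4.14, C1QC 6.56, CD163 10.4 and MRC1 206.9 CPM. In contrast (iii) the log2 fold change of CD163 was 0.83 (adjusted p = 0.293 from edgeR), the highest of the 5 macrophage markers tested. It was 0.45 for MRC1, 0.41 for MSR1, 0.28 for CD68 and -0.19 for C1QC. The sum of the list, most of it MRC1, was 70.5 to 230.5 CPM in the high and 73.9 to 108.3 CPM in the low group, and its part in the result was not tested. The spermatid sum was 5546 to 9928 CPM in the high and 9121 to 11960 CPM in the low group, and its part was not tested either.

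At day 0 the SLC40A1 groups overlapped. In contrast (i) the high boars held 14.1 CPM (L8), 19.2 CPM (L5), 48.2 CPM (L7) and 52.8 CPM (L6), and the low boars 13.5 CPM (L1), 17.1 CPM (L2), 21.03 CPM (L3) and 37.4 CPM (L4). The high group was thus split, with L5 and L8 inside the range of the low boars. The log2 fold change was 0.61 (SE 0.42, 95% interval -0.31 to 1.53) with an adjusted p of 0.276 from the quasi-likelihood test in edgeR.

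In Duroc, SLC40A1 was 14.3 CPM (D1), 22.2 CPM (D4), 29.8 CPM (D2), 35.3 CPM (D3) and 38.4 CPM (D5) in boars labelled High. It was 15.1 CPM (D6), 17.9 CPM (D7) and 24.3 CPM (D9) in boars labelled Low. The ranges overlapped, with D1 below all 3 Low boars, and the log2 fold change was 0.55 (SE 0.30, 95% interval -0.12 to 1.22, adjusted p = 1 from edgeR). The spermatid marker sum of these Duroc groups did not overlap, with 9701 to 10790 CPM in High and 8546 to 9498 CPM in Low boars.

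Between breeds, SLC40A1 had a median of 23.2 CPM in Duroc (14.3 to 38.4) and of 19.2 CPM in Landrace (7.11 to 52.8). The log2 fold change of Duroc over Landrace was 0.04 (SE 0.32, 95% interval -0.61 to 0.70), and the exact permutation test over 203490 assignments gave p = 0.555. The high-minus-low difference at day 0 in Landrace exceeded that of the Duroc labels by 0.08 on the log2 scale (SE 0.58, 95% interval -1.14 to 1.31), an interval too wide to set the breeds apart or alike. The value holds for the deposited labels only, and the grouping of the study's own description was not tested.

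Ordered by mean, SLC40A1 ran from contrast (iii) high (35.8 CPM) through contrast (i) high (33.6 CPM ± 19.8, SD, n = 4), Duroc High (27.98 CPM ± 9.80, SD, n = 5), contrast (i) low (22.3 CPM ± 10.6, SD, n = 4) and Duroc Low (19.1 CPM ± 4.69, SD, n = 3) to contrast (iii) low (11.4 CPM). Neighbouring groups in this order overlapped at each step. The low group of contrast (iii) held the 3 boars with the lowest SLC40A1 of all 21, L10, L12 and L9.

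The ferroxidases that act with ferroportin were sparse. HEPH (chromosome X, 52314911 to 52397384) was 1.18 CPM in L13, 5.62 CPM in L15 and 6.95 CPM in L7 of the contrast (iii) high group. It was 0.838 CPM in L12, 1.95 CPM in L2, 2.21 CPM in L9 and 2.30 CPM in L10 of the low group. L15 and L7 stood above the low boars and L13 did not. The log2 fold change was 1.32 (SE 0.54, 95% interval 0.12 to 2.53), with an unadjusted p of 0.0337 and an adjusted p of 0.244 from edgeR, and an exact permutation p of 0.2. Leaving out single boars gave 0.88 (without L7) to 1.80 (without L13). In the other comparisons HEPH did not pass the filter on low counts. In contrast (i) L7 was the one high boar with much HEPH, the other 3 lying at 0.558 to 0.673 CPM, and the low boars at 0.440 to 1.95 CPM. All 8 Duroc boars had 0.269 to 1.29 CPM and the Landrace boars 0.440 to 6.95 CPM. Without the filter the log2 fold change of Duroc over Landrace was -1.41 (SE 0.51, adjusted p = 0.168 from edgeR).

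CP, the ferroxidase of plasma (chromosome 13, 89396713 to 89463540), passed the filter in none of the 5 comparisons. It was 0.183 to 1.98 CPM over the 21 boars, from 10 counts in L10 to 214 counts in D3. The lowest boar (L10) and the highest (L13, 1.98 CPM) were both of contrast (iii), in the low and the high group. Its groups overlapped in every comparison, with exact permutation p from 0.23 to 0.514.

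TFRC, the receptor that takes up transferrin (chromosome 13, 133976765 to 133997554), was read from 67.3 to 239.8 CPM. In contrast (i) the high boars held 97.7 CPM (L7), 108.0 CPM (L5), 113.6 CPM (L8) and 239.8 CPM (L6). The low boars held 67.3 CPM (L3), 89.2 CPM (L1), 114.7 CPM (L2) and 116.4 CPM (L4). Only L6 of the high boars lay above the low group, and the log2 fold change was 0.53 (SE 0.27, adjusted p = 0.155 from edgeR) and 0.16 without L6. In contrast (iii) it was 97.7 CPM (L7), 100.7 CPM (L15) and 176.2 CPM (L13) in high and 77.5 CPM (L9), 87.0 CPM (L10), 88.2 CPM (L12) and 114.7 CPM (L2) in low boars. L2 lay above L7 and L15, and the log2 fold change was 0.44 (SE 0.21, adjusted p = 0.272 from edgeR) and 0.13 without L13.

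By the deposited labels the sign of TFRC in Duroc was the opposite, with a log2 fold change of -0.22 (SE 0.21, adjusted p = 1 from edgeR). It was 67.6 to 136.4 CPM in High and 104.9 to 127.6 CPM in Low boars. The grouping of the study's own description was not tested. The difference between the Landrace day 0 contrast and the Duroc labels was 0.79 on the log2 scale (SE 0.37, 95% interval -0.0013 to 1.58). Its unadjusted p was 0.0503 and its adjusted p 0.329 in edgeR, so it did not pass, and it was 0.41 without L6.

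TF, the iron carrier of serum that Sertoli cells are also known to make, lay at a few CPM and was highest in 2 Duroc boars. RefSeq lists 2 TF entries side by side on chromosome 13 (74862502 to 74907059, and 74930655 to 74970599), and which of them the counted identifier is could not be told. D4 had 8.54 CPM, D2 had 5.32 CPM and the other Duroc boars 1.29 to 2.59 CPM, against 0.448 to 1.95 CPM in Landrace. Except for D4, D2 and D9 the Duroc boars lay inside the Landrace range. The log2 fold change of Duroc over Landrace was 1.08 (SE 0.32, 95% interval 0.42 to 1.74), with an exact permutation p of 0.02. The adjusted p was 0.0708 with the quasi-likelihood test in edgeR, 0.0262 with the likelihood ratio test in edgeR and 0.0353 with DESeq2. Without D4 the log2 fold change was 0.64, and without D2 and D4 it was 0.24 (SE 0.23, adjusted p = 0.891 from edgeR).

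Both of these boars were labelled High, and the Duroc log2 fold change of TF was 1.05 (SE 0.64, 95% interval -0.35 to 2.45, adjusted p = 1 from edgeR). Without D4 it was 0.48. In the Landrace contrasts TF differed by -0.18 (SE 0.40) in contrast (i) and by -0.08 (SE 0.30) in contrast (iii) on the log2 scale, with overlapping groups. L6 held the lowest TF of all boars, 0.448 CPM.

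STEAP3, the endosomal ferrireductase (chromosome 15, 24736556 to 24785376), spread widely within the contrast (i) high group. These boars held 0.463 CPM (L8), 2.20 CPM (L5), 5.18 CPM (L6) and 5.85 CPM (L7), on both sides of the low boars at 2.53 to 3.27 CPM. The log2 fold change was 0.31 (SE 0.55). In contrast (iii) L7 at 5.85 CPM stood above L13 (1.56 CPM) and L15 (1.503 CPM), which lay within the 0.786 to 2.53 CPM of the low boars. The log2 fold change was 0.68 (SE 0.53) and -0.29 without L7. Duroc boars ran from 1.64 to 4.64 CPM, with log2 fold changes of 0.20 (SE 0.42) by label and 0.29 (SE 0.34) over Landrace.

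SLC11A2, the transporter that brings iron across the endosomal and gut membrane (on an unplaced sequence of Sscrofa11.1), varied least, from 65.5 to 92.7 CPM over the 21 boars with a coefficient of variation of 11.4%. It was 65.5 to 78.7 CPM in Duroc (median 71.3) and 67.8 to 92.7 CPM in Landrace (median 83.7). The ranges overlapped, but 9 of the 13 Landrace boars lay above all Duroc boars. The log2 fold change of Duroc over Landrace was -0.20 (SE 0.07, 95% interval -0.36 to -0.05), and the exact permutation test gave p = 0.00496. Among all genes it did not pass, with an unadjusted p of 0.0106 and an adjusted p of 0.174 from edgeR. Between hyperactivity groups it differed by 0.09 (SE 0.13) in contrast (i), -0.02 (SE 0.13) in contrast (iii) and -0.12 (SE 0.14) in Duroc, on the log2 scale.

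**Figure D2:**
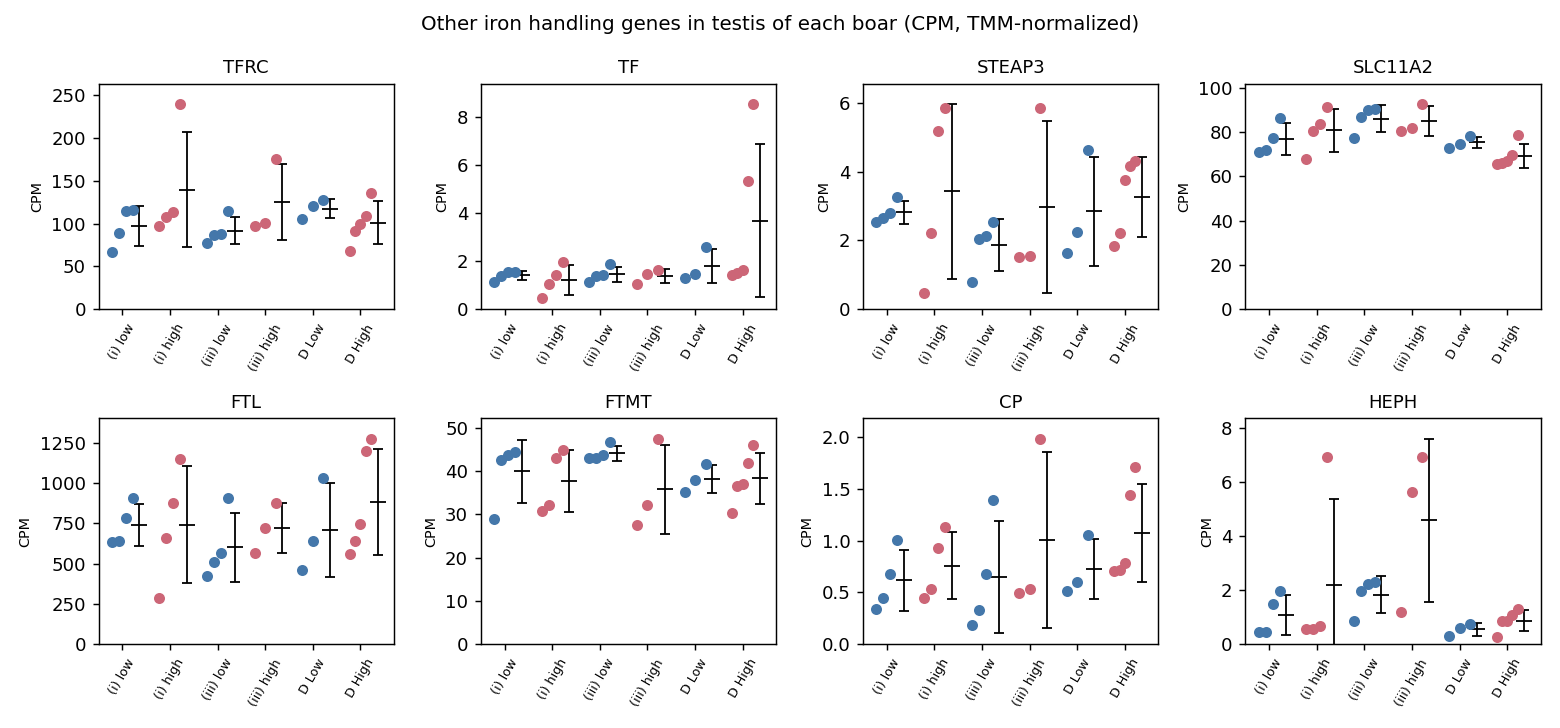
Levels (CPM, TMM-normalized, y axes from 0) of the other 8 iron handling genes in each boar, by group of contrast (i), contrast (iii) and the Duroc labels (D), red for high and blue for low groups, with the group mean and SD as black bars (the SD bar of HEPH in contrast (i) high stops at 0). TF is high in D4 (8.54 CPM) and D2 (5.32 CPM), HEPH in L7 (6.95 CPM) and L15 (5.62 CPM), and TFRC in L6 (239.8 CPM).

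FTL, the light chain of cytosolic ferritin (chromosome 6, 54231121 to 54232756), was read from 284.5 CPM in L8 to 1275 CPM in D3. The contrast (i) high boars held 284.5 CPM (L8), 657.3 CPM (L5), 874.7 CPM (L7) and 1147 CPM (L6), around the 633.4 to 910.0 CPM of the low boars. Their means were nearly equal, 740.8 CPM ± 364.1 and 742.0 CPM ± 131.0 (SD, n = 4 each), with a log2 fold change of 0.014 (SE 0.32). In contrast (iii) the boars ran from 562.3 to 874.7 CPM in the high and from 419.6 to 910.0 CPM in the low group (log2 fold change 0.27, SE 0.24). Duroc boars held 461.9 to 1275 CPM, with log2 fold changes of 0.32 (SE 0.33) by label and 0.29 (SE 0.21) over Landrace. Ferritin genes are known to have near-identical copies, and reads aligned to several places were left out of the counts. How many FTL reads this removed was not measured, so its levels are uncertain.

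FTMT, the mitochondrial ferritin (chromosome 2, 125391524 to 125395066), lay between 27.6 and 47.5 CPM in all boars. In contrast (iii) the low boars held 43.0 CPM (L9), 43.1 CPM (L10), 43.7 CPM (L2) and 46.8 CPM (L12). The high boars held 27.6 CPM (L13), 32.3 CPM (L7) and 47.5 CPM (L15). L15 lay above and L13 and L7 below the narrow range of the low group, and the log2 fold change was -0.30 (SE 0.19, adjusted p = 0.366 from edgeR). In contrast (i) it was -0.06 (SE 0.18), in Duroc 0.0032 (SE 0.17) and over Landrace -0.06 (SE 0.11).

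Over the members as a group, the quasi-likelihood test in edgeR called 0 of 7 tested in contrast (i), 0 of 8 in contrast (iii), and 0 of 7 each in Duroc, between breeds and for the difference between breeds. Across all genes tested it called 20.7%, 0%, 0%, 2.77% and 0% in the same order. At an unadjusted p under 0.05 there were 0 members in contrast (i), 2 in contrast (iii) (SLC40A1 and HEPH), 0 in Duroc, 2 between breeds (TF and SLC11A2) and 0 for the difference, where 41.7%, 19.8%, 1.21%, 12.2% and 15.1% of all genes tested did so. The likelihood ratio test and DESeq2 each called SLC40A1 in contrast (iii) and TF between breeds, and no member elsewhere.

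**Figure D3:**
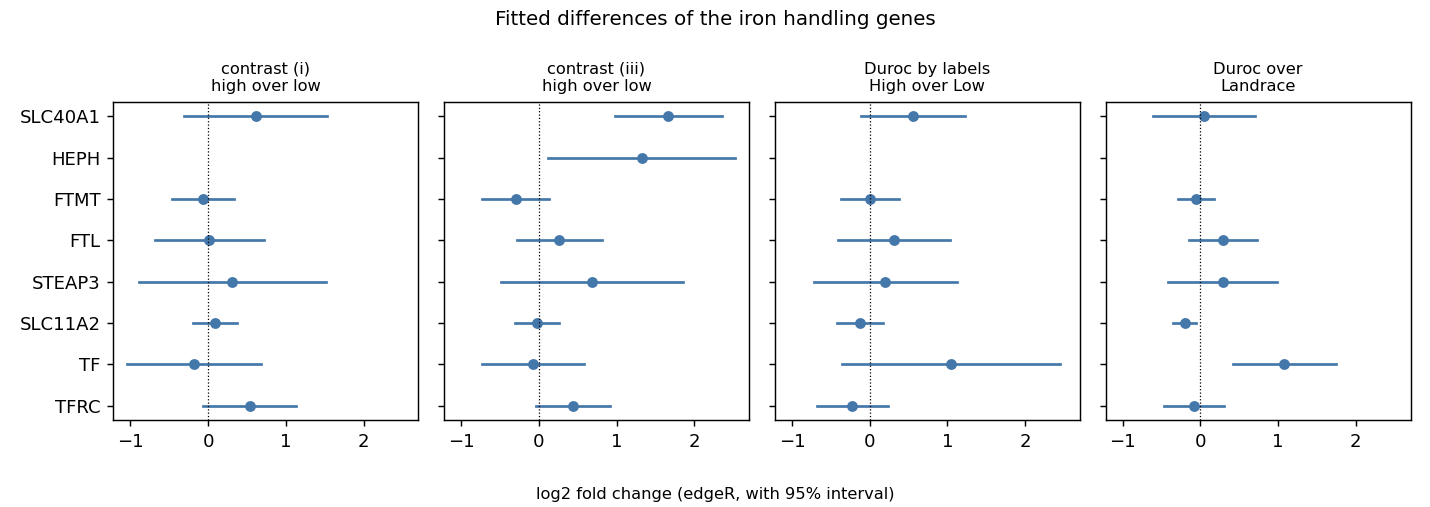
Fitted log2 fold changes (x axis, points) with 95% intervals (lines) of the 8 members that passed the filter (y axis) in 4 comparisons; HEPH was tested in contrast (iii) alone and CP in none. The interval lies wholly above 0 for SLC40A1 (0.97 to 2.35) and HEPH (0.12 to 2.53) in contrast (iii) and for TF between breeds (0.42 to 1.74), and wholly below 0 for SLC11A2 between breeds (-0.36 to -0.05).

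FTL and STEAP3 levels moved together from boar to boar, and with markers of other cell types. Over the 13 Landrace boars log2 CPM of FTL and STEAP3 had a Pearson r of 0.897 (permutation p = 6e-05, adjusted p = 0.00252 over 42 relations between members) and a Spearman rho of 0.797 (permutation p = 0.00188, adjusted p = 0.079). Without the 2 boars farthest from the median FTL, L8 and L6, r was 0.764. In the 8 Duroc boars r was 0.841 (exact permutation p = 0.0163, adjusted p = 0.149) and rho was 0.714 (exact permutation p = 0.0576, adjusted p = 0.317), and r was 0.877 without D3 and D5. No other pair of members passed in either breed.

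FTL followed the summed level of the Leydig markers CYP17A1, CYP11A1, STAR, INSL3 and LHCGR, and in Duroc that of the endothelial markers as closely. In Landrace r was 0.881 (permutation p = 5e-05, adjusted p = 0.007 over 140 relations of members with marker sums), rho was 0.731 (permutation p = 0.00576, adjusted p = 0.265), and r was 0.732 without L8 and L10. In Duroc r was 0.925 (exact permutation p = 0.00389, adjusted p = 0.0909), rho was 0.833 (exact permutation p = 0.0154, adjusted p = 0.359), and r was 0.939 without D9 and D5. For FTL and the endothelial sum r was 0.719 in Landrace (permutation p = 0.00631, adjusted p = 0.126) with a rho of 0.604 (permutation p = 0.0326, adjusted p = 0.396), and r was 0.527 without L8 and L13. In Duroc r was 0.925 (exact permutation p = 0.00176, adjusted p = 0.0694) and rho was 0.905 (exact permutation p = 0.00456, adjusted p = 0.265), and r was 0.837 without D6 and D3. For STEAP3 and the Leydig sum in Landrace r was 0.845 (permutation p = 2.4e-04, adjusted p = 0.0168), rho was 0.709 (permutation p = 0.00847, adjusted p = 0.265), and r fell to 0.591 without L8 and L10, so it rested in part on these boars. In Duroc the r of STEAP3 was 0.833 with the Leydig, 0.86 with the endothelial and 0.852 with the peritubular sum (exact permutation p = 0.0181, 0.0103 and 0.0168), and the rho 0.762, 0.762 and 0.786 (exact permutation p = 0.0368, 0.0368 and 0.0279), with adjusted p of 0.16 or more. Without the 2 boars farthest from the median these r were 0.71, 0.844 and 0.755.

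For SLC40A1 and the Leydig sum in Landrace r was 0.74 (permutation p = 0.00382) and rho was 0.703 (permutation p = 0.00946), with adjusted p of 0.0909 and 0.265, and r was 0.697 without L8 and L10. For SLC40A1 and the macrophage sum r was 0.0908 (permutation p = 0.781) and rho was 0.0275 (permutation p = 0.934) in Landrace, with adjusted p of 0.911 and 0.999, and r was -0.423 without L13 and L6. For SLC40A1 and the endothelial sum in Landrace r was 0.468 (permutation p = 0.105) and rho was 0.533 (permutation p = 0.0641), with adjusted p of 0.424 and 0.504, and r was 0.543 without L8 and L13. In Duroc the highest r of SLC40A1 among the Leydig, endothelial, macrophage, peritubular and spermatid sums was with the endothelial sum, 0.717 (exact permutation p = 0.0521, adjusted p = 0.384), with a rho of 0.667 (exact permutation p = 0.0831, adjusted p = 0.554) and an r of 0.501 without D6 and D3. With the Leydig sum r was 0.645 (exact permutation p = 0.0888, adjusted p = 0.424) and rho was 0.524 (exact permutation p = 0.197, adjusted p = 0.724), and r was 0.615 without D9 and D5.

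**Figure D4:**
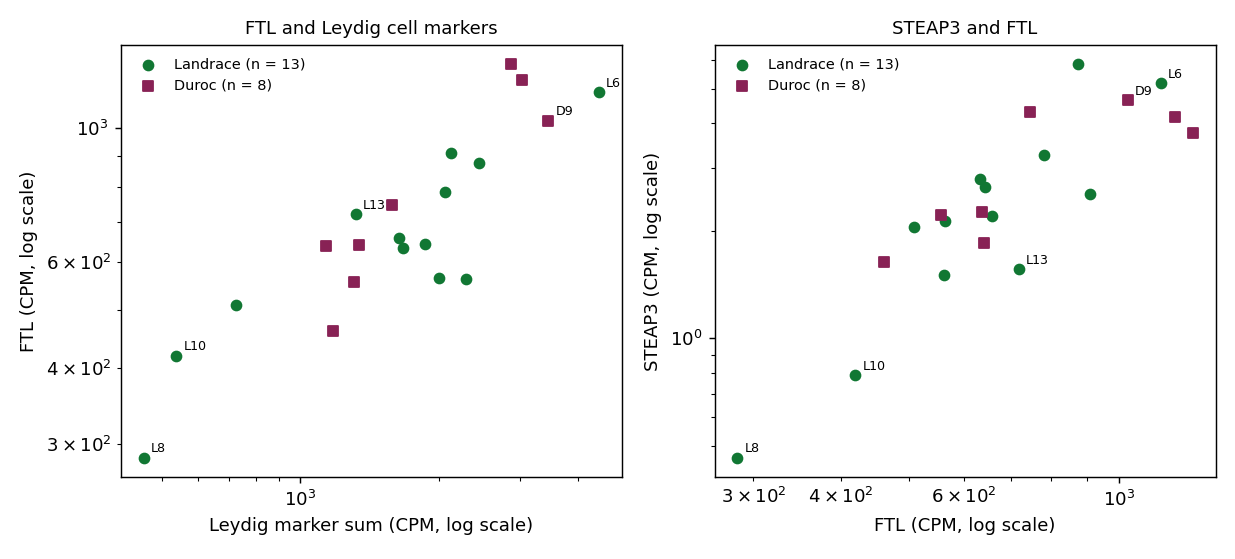
Each point is a boar, Landrace as green circles (n = 13) and Duroc as purple squares (n = 8), all axes in CPM on a log scale. Left, FTL against the Leydig marker sum, from L8 (284.5 CPM FTL, 456.5 CPM Leydig sum) to L6 (1147 and 4451 CPM); right, STEAP3 against FTL.

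The genes whose level followed SLC40A1 most closely over the 21 boars, after the breed mean was taken off, were DIPK2A (r = 0.894), CALCRL (0.857), SLC7A11 (0.844), GPD1L (0.832) and WNT5A (0.83) among 12834 genes compared. SLC7A11 imports cystine for glutathione synthesis, CALCRL is the calcitonin receptor-like receptor and WNT5A a secreted Wnt ligand. Within Landrace these 5 genes had r of 0.847 to 0.927, and within Duroc of 0.626 to 0.818. For FTL the nearest genes were the sulfotransferase SULT2A1 (0.917) and the coatomer subunit COPZ2 (0.915). For STEAP3 they were ECH1 (0.889) and DHRS4 (0.86), for TFRC an unnamed gene and DPY19L4 (0.867), for TF SPATA9 (0.824) and an unnamed gene, for SLC11A2 the urea transporter SLC14A1 (0.77) and CDC42SE2 (0.725), and for FTMT BICRAL (0.88) and SOX5 (0.861). These are descriptions of the same 21 libraries, chosen as the highest of many.

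Beyond the members, 66 of 76 listed genes of iron and haem uptake, storage, export, regulation, iron-sulphur cluster assembly and haem metabolism had a row. In contrast (i) 49 of them were tested, and the quasi-likelihood test in edgeR called 3 higher and 6 lower in the high group, 18.4% in all against 20.7% of all genes tested, of which 4.82% were higher and 15.8% lower, with a median log2 fold change of 0.06 against 0.04 over all genes. The list thus moved about as often as genes at large.

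Among the 8 tested regulators of iron, 2 rose in the high boars and 1 fell. IREB2, which binds iron-responsive elements when iron is low, was 92.5 CPM ± 26.7 in high and 62.4 CPM ± 2.67 in low boars (SD, n = 4 each; log2 fold change 0.58, adjusted p = 0.0405 from edgeR). NFE2L2, the oxidative stress factor that drives ferroportin and ferritin genes in other tissues, was 79.4 CPM ± 13.3 against 54.1 CPM ± 6.64 (log2 fold change 0.57, adjusted p = 0.0277). EPAS1, a hypoxia factor, fell by 1.14 on the log2 scale, from 8.50 CPM ± 2.15 in low to 3.79 CPM ± 1.33 in high boars (adjusted p = 0.0266). Groups overlapped for IREB2 and NFE2L2 and not for EPAS1, where 28.1% of all genes tested had groups that did not overlap.

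Of the 8 tested haem synthesis genes 2 fell and none rose. ALAD, which joins aminolevulinate into porphobilinogen, differed by -1.27 on the log2 scale (1.22 CPM ± 0.173 in low and 0.497 CPM ± 0.240 in high boars, adjusted p = 0.0435 from edgeR). Low boars held 1.03 to 1.45 CPM and high boars 0.207 to 0.701 CPM, so ALAD met the filter on low counts through the low group alone. It could be tested in only 4 of the fits that each left out 1 boar, and was called in 2 of them. UROD, a later step, differed by -0.87 (12.8 CPM ± 1.14 and 6.83 CPM ± 2.74, adjusted p = 0.0473). HMOX2, a haem oxygenase, differed by -0.98 with 97.7 CPM ± 4.13 in low and 48.7 CPM ± 16.3 in high boars (adjusted p = 0.0209); it was chosen for naming after its values were seen.

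In iron-sulphur cluster assembly, 1 of 13 mitochondrial genes rose and 1 fell, and 1 of 7 cytosolic genes fell. The electron donor FDX1 was higher by 0.66 on the log2 scale (adjusted p = 0.0431 from edgeR), at 87.8 to 171.4 CPM in high and 62.0 to 83.8 CPM in low boars. Without L6 the FDX1 difference was 0.40. The mitochondrial transporter ABCB8 differed by -0.99 (adjusted p = 0.0237) and the cytosolic assembly factor CIAO3 by -1.05 (adjusted p = 0.0391). None of the 7 uptake, 2 storage and 2 export genes tested was called.

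The count of 9 calls changed with single boars, as did the calls over all genes. None was made without L6 or without L3, where 0.00775% and 0.00786% of all genes tested were called, and 3 without L1 or without L4, where 7.56% and 11.6% were. There were 5 without L2 or without L8 (14.4% and 9.49% of all genes), 11 without L7 (21.5%) and 16 without L5 (29.1%). The calls of higher iron genes depended on the boars as well. They numbered 0 without L1 or without L4, 1 without L2, 2 without L8, 3 without L7 and 7 without L5. Lower iron genes numbered 3, 3, 4, 3, 8 and 9 in the same order. With both L2 and L7 removed, 0 iron genes were called higher and 7 lower, and 95.7% of the calls over all genes were lower. Among cell type markers in contrast (i), 2 of 4 tested peritubular, 2 of 6 spermatid, 1 of 5 macrophage and 1 of 2 erythroid markers were lower and 1 of 5 spermatocyte markers was higher, and their part in the calls was not tested.

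**Figure D5:**
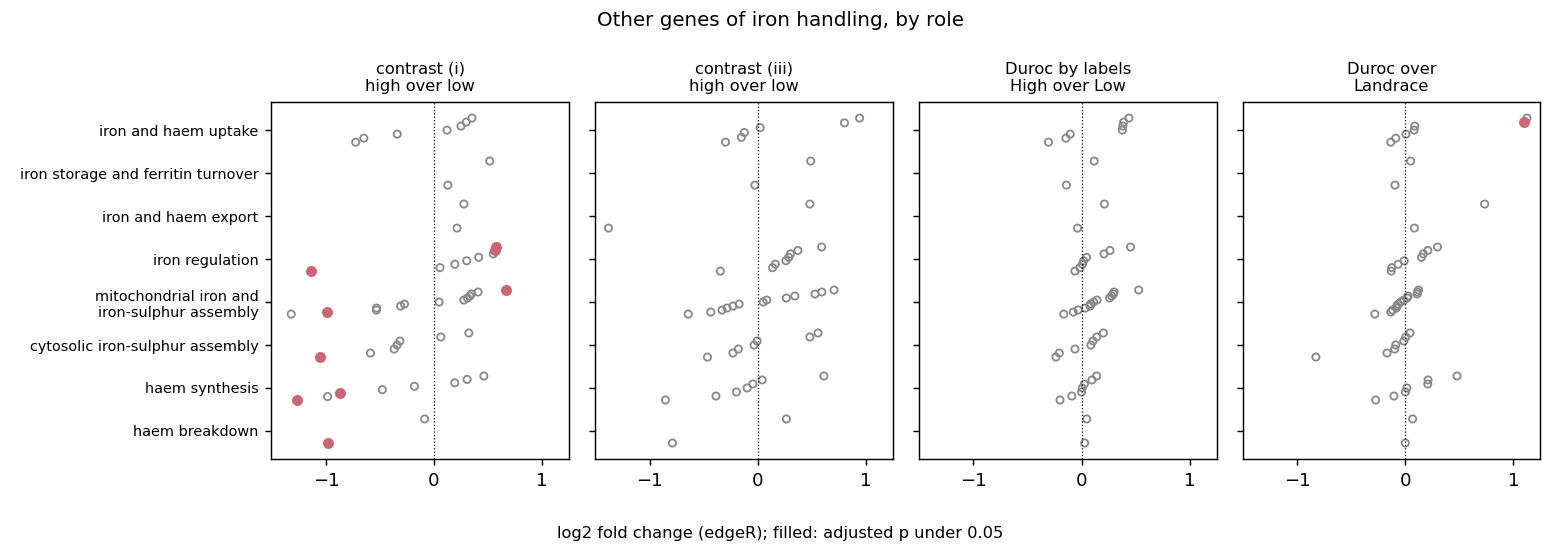
Log2 fold changes (x axis) of the other iron genes tested, by role (y axis), in 4 comparisons; filled red points passed an adjusted p under 0.05 in edgeR and open points did not. Contrast (i) holds 3 filled points above and 6 below 0, the breed comparison 1 (SLC39A8, 1.098), and the other panels none.

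In contrast (iii) 0 of 47 other iron genes were called by the quasi-likelihood test in edgeR, 11 had an unadjusted p under 0.05 against 19.8% of all genes, and neither the likelihood ratio test nor DESeq2 called one. Those with the smallest p were NFE2L2 (log2 fold change 0.59), FDX1 (0.53), the haem synthesis gene CPOX (0.61) and the ferrireductase CYBRD1 (0.80), each with an adjusted p of 0.24 from edgeR. NFE2L2 and FDX1 were also among the genes that rose in contrast (i), which shares L2 and L7 with this contrast. Without L2 and L7, contrast (i) called 0 iron genes higher, so neither was called there. In Duroc 0 of 48 were called, with 0 at an unadjusted p under 0.05 where 1.21% of all genes had one, and none by the likelihood ratio test or DESeq2. Among those with the smallest p were FLVCR2 (-0.31), CYBRD1 (0.38) and CIAPIN1 (-0.24), each with an adjusted p of 1.

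Between breeds 1 of 48 other iron genes was called, 2.08% against 2.77% of all genes. SLC39A8, an importer of zinc, manganese and iron, was 4.98 CPM ± 1.95 (SD, n = 8) in Duroc and 2.32 CPM ± 1.34 (SD, n = 13) in Landrace. Its log2 fold change was 1.098 (SE 0.28, adjusted p = 0.029 from edgeR), and it was called in 20 of the 21 fits that each left out 1 boar, but not without D2 (log2 fold change 0.89, adjusted p = 0.0904). NUBP1 (-0.83), STEAP4 (1.13) and FECH (-0.27) had the next smallest p, with adjusted p of 0.11, 0.191 and 0.238 from edgeR. For the difference between breeds in the hyperactivity contrast 0 of 48 were called, and neither the likelihood ratio test nor DESeq2 called one. Of these 48 genes, 5 had an unadjusted p under 0.05, against 15.1% of all genes tested. IREB2 (0.67), EPAS1 (-1.39), FDXR (-1.84) and HMOX2 (-0.99) had the smallest p, each with an adjusted p of 0.329.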

How the data were processed

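RNA from testis was sequenced by the authors as single reads from stranded mRNA libraries. Per the methods and the submitters' processing notes, reads were trimmed with Trimmomatic 0.36, aligned to Sscrofa 11.1 with STAR, and counted per Ensembl gene with HTSeq for the reverse strand, and the authors tested with edgeR 3.12.1. The deposited values are raw counts, 1 file per boar. Summary lines for reads in no feature (21.5 to 30.3% of the counts in genes and summary lines), ambiguous reads (0.698 to 0.837%) and reads aligned to several places (5.83 to 8.28%) were left out of library sizes.

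Symbols were matched to 14857 of 25880 identifiers through a gene name table. Coordinates came from the RefSeq annotation, and exon lengths were not used here, so levels were not compared between genes.

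The fits were run with edgeR 4.0.16, built on limma 3.58.1, and as an alternative with DESeq2 1.42.0, all under R 4.3.3. A gene entered a fit when 4 or more libraries reached 1 CPM (11 between breeds, 8 for the difference between breeds), and libraries were scaled by TMM. The quasi-likelihood test was the main test, with Benjamini-Hochberg adjustment over all genes tested and a threshold of 0.05. The study's likelihood ratio test was an alternative. Printed CPM were normalized over all 21 libraries. Members were also compared by exact two-sided permutation tests of mean log2 CPM (prior count 2), and correlations by permutation (100000 draws in Landrace, all 40320 orders in Duroc). The fits were tested on simulated data, and no libraries were identical.

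The members and lists were chosen with earlier results of these data known. Named were all members, the called other iron genes with the 4 highest and 4 lowest log2 fold changes in a comparison or, with fewer than 4 called, the 4 with the smallest p, and the 5 (SLC40A1) or 2 genes most like each member. A gene that this rule names is not reported here. Alternatives were another test, normalization, filter or robust fit, 1 fit of all 21 libraries, leaving out boars, and leaving out haemoglobin and mitochondrially encoded genes.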

Additional observations from a re-analysis of the deposited data

Results flagged for a closer look

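In 10 of 140 gene and group combinations of 4 to 10 boars, 1 boar lay farther from the rest than Dixon's 95% limit allows, where chance gives about 7. In the contrast (i) high group, L6 held 239.8 CPM of TFRC against 97.7 to 113.6 in the other boars, and 171.4 CPM of FDX1 against 87.8 to 98.4. In the same group L7 held 6.95 CPM of HEPH against 0.558 to 0.673.

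In the contrast (i) low group, L4 held 29.0 CPM of FTMT against 42.6 to 44.5 in the other boars, L3 held 9.42 CPM of ABCB8 against 6.05 to 6.53, and L1 held 36.6 CPM of FLVCR2 against 57.3 to 60.4. Among Duroc boars labelled High, D2 held 87.9 CPM of IREB2 against 65.5 to 68.8, and D5 held 17.2 CPM of FECH against 12.6 to 13.1. D2 also held 9.69 CPM of SLC39A8, against 4.16 to 5.01 in the other High boars and 3.64 to 5.01 in all other Duroc boars.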

How the results depend on the processing

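SLC40A1 was higher in contrast (iii) under all alternatives run, with log2 fold changes from 1.41 to 1.67, but passed the adjusted threshold in 2 of them, the likelihood ratio test (1.66, adjusted p = 0.00198 in edgeR) and DESeq2 (1.67, adjusted p = 2.88e-04). Leaving out single boars gave 1.38 (without L7) to 1.92 (without L2) in contrast (iii), 0.33 to 0.95 in contrast (i), 0.41 to 0.76 in Duroc, -0.076 to 0.20 between breeds and -0.20 to 0.40 for the difference between breeds. For Duroc over Landrace, SLC40A1 had a log2 fold change of 0.04 with all Landrace boars. It was -0.17 for Duroc over the boars of contrast (i) and 0.49 for Duroc over the Landrace boars of contrast (iii) alone.

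Of the iron genes, 9 were called in contrast (i), 14 with DESeq2 and 0 with all 21 libraries in 1 fit, and 0 to 16 without single boars. Over all genes contrast (i) had 2682 calls, 76.7% of them lower, against 62.8% of 3922 with DESeq2 and 1 gene with all libraries in 1 fit. In contrast (iii) 0 iron genes were called, 1 with the likelihood ratio test and 1 with DESeq2. Between breeds 1 iron gene was called, 2 with the likelihood ratio test and 3 with DESeq2 (TF, SLC39A8 and NUBP1). It was 0 with the Landrace boars of contrast (iii) alone, 0 without D2 and D4, and 0 to 2 without single boars. Over all genes the breed calls were 355, and 537 with DESeq2, 554 without a filter, 204 with the boars of contrast (i), 91 with the Landrace boars of contrast (iii) alone and 228 without D2 and D4. For the difference between breeds 0 genes were called, 3 by the likelihood ratio test and 6 by DESeq2. Without single boars, members whose groups did not overlap numbered 1 to 2 in contrast (iii), where the groups of 18.4 to 37.7% of all genes did not overlap, and 0 to 1 in Duroc, where those of 1.99 to 6.92% did not.

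Some members changed sign, and the cause was not tested. Not all of them lay near 0 in the main fit, where STEAP3 was 0.31 in contrast (i) and 0.68 in contrast (iii), and FTL 0.27 in contrast (iii). FTMT did so in contrast (i) without a filter (0.0014) and without L2 and L7 (0.014), for the difference between breeds without a filter (0.023), and in Duroc with DESeq2 (-0.025), relative log expression normalization (-0.025), no filter (-0.036), a filter of 10 counts (-0.0027) and without haemoglobin and mitochondrially encoded genes (-0.027). STEAP3 did so without L2 and L7 in contrast (i) (-0.17) and contrast (iii) (-0.12). STEAP3 also did so with all libraries in 1 fit for the difference between breeds (-0.0099) and for Duroc over the boars of contrast (i) (-0.0035). TFRC between breeds was 0.016 with the Landrace boars of contrast (iii) alone. Without L9 and L10, TF (0.15), FTL (-0.013) and SLC11A2 (0.073) did so in contrast (iii).

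Without single boars, log2 fold changes in contrast (i) ran from -0.50 to 0.10 for TF, -0.25 to 0.30 for FTL, -0.10 to 0.69 for STEAP3 and -0.23 to 0.031 for FTMT. In contrast (iii) they ran from -0.21 to 0.082 for TF, -0.068 to 0.010 for SLC11A2 and -0.29 to 1.003 for STEAP3. In Duroc they ran from -0.077 to 0.74 for STEAP3 and -0.070 to 0.071 for FTMT, between breeds from -0.13 to 0.057 for TFRC, and for the difference between breeds from -0.39 to 0.45 for STEAP3 and -0.23 to 0.056 for FTMT.

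No paired analysis was possible because the numbers name single boars and tie no boar of one group to a boar of another. Summing ferritin copies was not run, since no member symbol had more than 1 identifier. The fits without L9 and L10 and without D2 and D4 were chosen after seeing the data. With 3 to 5 boars a group the intervals were wide, and CP and HEPH lay near or under the filter.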
